A study of Rattus norvegicus with 4 samples.

Results

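The complement genes described here are 9 components and regulators of the complement system, C1qa, C1qb, C1qc, C1s, C2, C3, Cfd, Serping1 and Cd59, in the lumbar dorsal root ganglia (DRG) of rats. They were chosen by gene symbol among the protein-coding rows of the deposited count table. The 9 symbols gave 10 of its 33506 gene rows, because C2 stands on 2 rows, and 22293 rows were protein coding.

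Whole DRG, clusters of sensory neuron cell bodies with their glia, macrophages, fibroblasts and blood vessels, were profiled by RNA sequencing of polyadenylated RNA in 4 libraries. Of these, 2 came from vehicle-treated and 2 from cisplatin-treated wild-type neonatal Wistar rats. Cisplatin, a platinum-based chemotherapeutic, was given at 0.3 mg/kg, and vehicle was PBS. The study addressed how cisplatin in early life alters the inflammatory state of sensory tissue. The methods place the injections on postnatal days 14 and 16 and the collection on postnatal day 23, whereas the labels give 16 days after treatment. Each library pooled 2 to 5 ganglia, and rats of both sexes were used in the study, though the sex behind each library was not given in the sources used here. Total counts ran from 21384801 to 25618417 per library. Sensory neuron markers were abundant in every library, as the labelled tissue requires: 8 neuronal markers (among them the neurofilament gene Nefl and the sensory neuron transcription factor gene Isl1) summed to between 23581 and 37365 CPM, that is, read counts scaled to the library total. No member of the list was at 0. The libraries also differed within groups, and the values that touch a complement gene stand beside it.

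The complement system is a cascade of plasma and tissue proteins that tags and clears microbes, dying cells and synapses and recruits phagocytes. In the classical pathway, C1q binds a target and activates the proteases C1r and C1s, which cleave C4 and C2 to form an enzyme that cleaves C3; factor D, the product of Cfd, serves the alternative pathway that amplifies C3 cleavage. C1 inhibitor (Serping1) blocks C1r and C1s, and CD59, a protein anchored in the cell membrane, stops assembly of the membrane attack complex on host cells. In nervous tissue, macrophages and microglia are known as the main source of C1q.

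The 3 C1q subunit genes lie side by side on the minus strand of chromosome 5. In Rnor_6.0, the build of the deposited tables, C1qb spans positions 155246447 to 155252003, C1qc 155255005 to 155258392 and C1qa 155261250 to 155264143. Thus the cluster covers 17697 bases, with 3001 bases between C1qb and C1qc and 2857 bases between C1qc and C1qa. RefSeq promoter sequences (GRCr8) were given for 4 of the 9 genes, namely C1qa, C1qb, C3 and Cfd. Those of C1qa and C1qb are printed because these neighbouring genes of a single complex had similar levels in all 4 libraries, as the values below show. Each sequence is the 250 bases before the transcription start, 5′ to 3′ on the gene's own strand, and capitals mark GGAAGT or its reverse complement ACTTCC, a core sequence bound by ETS transcription factors such as the macrophage factor PU.1. The C1qa sequence is chr5:154419934-154420183 and the C1qb sequence chr5:154407828-154408077, both on the minus strand.
C1qa: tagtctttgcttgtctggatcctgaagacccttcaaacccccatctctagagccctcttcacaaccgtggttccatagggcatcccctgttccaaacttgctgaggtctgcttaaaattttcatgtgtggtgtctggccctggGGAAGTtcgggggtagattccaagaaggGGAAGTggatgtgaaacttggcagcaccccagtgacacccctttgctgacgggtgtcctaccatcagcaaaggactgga
C1qb: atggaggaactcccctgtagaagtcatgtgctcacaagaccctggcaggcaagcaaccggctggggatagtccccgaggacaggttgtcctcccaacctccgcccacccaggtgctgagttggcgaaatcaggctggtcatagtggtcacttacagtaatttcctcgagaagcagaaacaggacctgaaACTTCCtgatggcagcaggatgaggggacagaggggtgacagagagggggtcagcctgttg
The C1qa promoter held GGAAGT at 107 to 102 and at 79 to 74 bases before the start, and the C1qb promoter held ACTTCC at 61 to 56 bases before it. These letters were not in the windows of C3 or Cfd. Of 33465 rat promoters of the same length, 19.2% held GGAAGT on either strand, so such a match is common. The search also covered CCAAT (in 34.0% of all promoters), TATAAA (12.9%), the interferon-stimulated response element (3.41%) and CACGTG (5.59%) on both strands, none of which was in the windows of the 4 genes.

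Expression per unit of gene length, in FPKM (fragment counts scaled to gene length and library total), ordered the 9 genes from a membrane inhibitor at the top to the central component C3 near the bottom. Cd59 was the highest, with a mean of 309 FPKM over the 4 libraries (range 203 to 443), above 98.4% of the 14719 genes tested. Serping1 followed at 40.9 FPKM (27.7 to 52.4), above 85.8% of genes. Both regulators therefore stood above each activating component in every library. C1s (11.2 FPKM), C1qc (10.2), C1qa (9.12) and C1qb (9.05) formed a middle group in which no neighbour in the order was separated from the next by more than its spread over libraries. Cfd stood apart below them at 3.40 FPKM (2.11 to 4.40). C2 (0.403 FPKM) and C3 (0.377 FPKM) were low and overlapped, with only 6.08% and 5.56% of tested genes below them. The ratio of Cd59 to C3 ran from 561 to 1571 across the libraries, although only 36 to 65 counts per library stood behind C3.

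**Figure D1:**
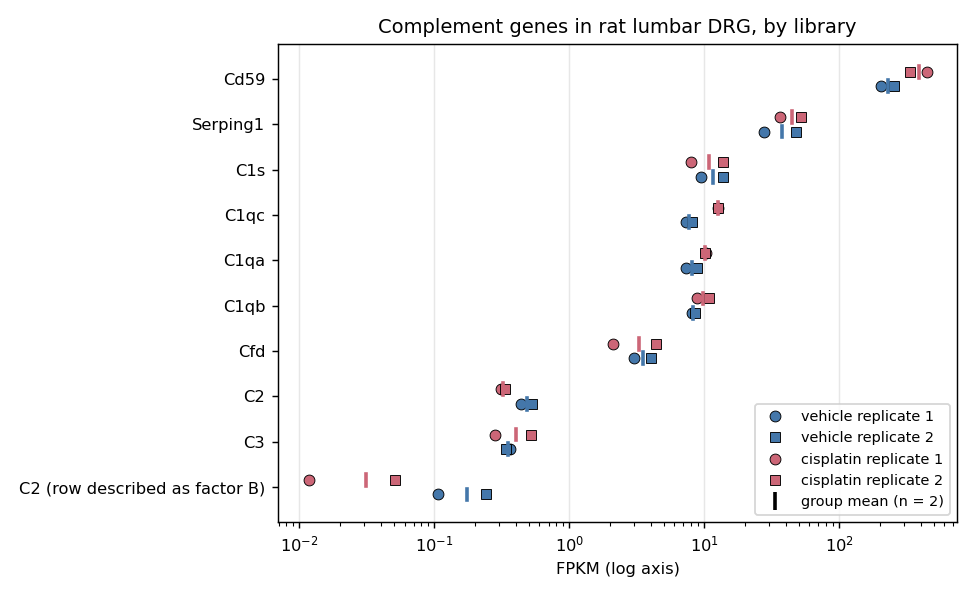
FPKM of each complement gene row (log axis) in the 4 libraries; circles and squares are replicates 1 and 2, blue is vehicle, red is cisplatin, and bars are group means (n = 2). Cd59 and Serping1 lie above all other rows, and the cisplatin points of Cd59, C1qc, C1qa and C1qb lie to the right of the vehicle points.

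Between the groups, none of the 9 rows tested was called by edgeR's quasi-likelihood test (a p of less than 0.05 after Benjamini-Hochberg adjustment, with at least a 1.5-fold difference), against 0.00679% of all genes tested, which is 1 gene of 14719. The second C2 row fell below the filter on low counts. The same count of 0 was given by DESeq2 and by limma on FPKM. At an unadjusted p under 0.05 edgeR gave 2 of the 9, C1qc and Cd59, both higher after cisplatin, where 9.57% of all genes tested lay under that threshold and 3.74% did so with the higher level after cisplatin. In 4 of the 9 (C1qa, C1qb, C1qc and Cd59) both cisplatin libraries lay above both vehicle libraries, which was so for 20.6% of all genes tested, and in 1 (C2) both lay below, as for 21.2% of genes; the 5 together stand against 41.8% of genes without overlap in either direction. In the remaining 4 (C1s, C3, Cfd and Serping1) the groups overlapped. The median log2 fold change of the 9 was 0.23, beside -0.01 over all genes tested. With 2 libraries against 2, the smallest two-sided p of an exact permutation test is 0.333, so these tests rest on a spread modelled across genes. In whole ganglia, fewer cells of a type and less RNA per cell cannot be told apart.

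C1qc, which encodes the C chain of the recognition molecule C1q, had 8.11 and 9.09 CPM in vehicle replicates 1 and 2 and 14.09 and 14.03 CPM in cisplatin replicates 1 and 2. Both cisplatin libraries stood above both vehicle libraries, and the closest pair across groups differed 1.54-fold. The fitted difference was 1.63-fold, a log2 fold change of 0.71 (SE 0.227, 95% interval 0.14 to 1.28) and an edgeR adjusted p = 0.509. With a correction for gene length the log2 fold change was 0.52 (edgeR unadjusted p = 0.0596). C1qa, the A chain gene, had 7.83 and 9.55 CPM in vehicle replicates 1 and 2 and 11.0 and 10.8 CPM in cisplatin replicates 1 and 2. The groups did not overlap, with a closest pair 1.13-fold apart and a fitted log2 fold change of 0.33 (SE 0.244, edgeR adjusted p = 0.670), which was 0.13 with a correction for gene length and 0.20 without vehicle replicate 1. C1qb, the B chain gene, had 8.91 and 9.50 CPM in vehicle replicates 1 and 2 and 9.80 and 11.9 CPM in cisplatin replicates 1 and 2. Its groups barely separated, as the lowest cisplatin library was only 1.03-fold above the highest vehicle library, and the log2 fold change was 0.24 (SE 0.244, edgeR adjusted p = 0.756), which shrank to 0.05 with the gene length correction and to 0.09 without cisplatin replicate 2.

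C1q is built from equal numbers of its A, B and C chains, so the 3 transcripts were also set beside each other. Their summed level was 24.8 and 28.1 CPM in the vehicle libraries and 34.9 and 36.7 CPM in the cisplatin libraries, a 1.35-fold ratio of means with no overlap. Leaving out each library in turn kept this ratio between 1.27 and 1.44. The sum was not computed with the gene length correction, which lowered the log2 fold change of each of the 3 genes. In the vehicle libraries the 3 genes shared the summed FPKM almost evenly, the shares of C1qa, C1qb and C1qc averaging 33.5%, 34.5% and 32.0%. In the cisplatin libraries C1qc took 39.8% and 37.7%, against 32.2% and 31.8% in the vehicle libraries. The C1qb share was 27.9% and 32.3% after cisplatin and 35.6% and 33.4% with vehicle, whereas the ranges of the C1qa share overlapped. These shares rest on 554 to 887 counts per library over the 3 genes and were not tested.

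The summed level of 14 macrophage markers was also higher after cisplatin, and that difference rested mostly on Lyz2, the lysozyme gene. The 14 summed to 163 and 187 CPM in the vehicle libraries and 200 and 235 CPM in the cisplatin libraries, 1.24-fold apart in their means and without overlap. Lyz2 alone had 70.1 and 76.5 CPM with vehicle and 104 and 109 CPM after cisplatin, which was 40.8% to 52.1% of the sum in the 4 libraries. The other 13 summed to 92.4 and 111 CPM with vehicle and 95.8 and 126 CPM after cisplatin, so that these groups overlapped at a 1.09-fold ratio of means. None of the 14 was called by edgeR, 8 were higher and 6 lower after cisplatin, none was at 0, and 2 (Lyz2 and the phagocyte lysosomal gene Cd68) had an unadjusted p under 0.05, beside 9.57% of all genes tested. Both cisplatin libraries lay above both vehicle libraries for 4 of the 14 (Lyz2, Cd68, Fcer1g and Tyrobp), beside 20.6% of all genes tested. Both lay below for 4 (Ptprc, Aif1, Adgre1 and Cd163), beside 21.2% of genes, and the groups overlapped for 6. The receptor gene Csf1r, which defines the macrophage lineage, had 22.3 and 27.2 CPM with vehicle and 23.1 and 24.7 CPM after cisplatin. Its groups overlapped. The pan-leukocyte gene Ptprc, which encodes CD45, had 2.84 and 2.74 CPM with vehicle and 2.40 and 2.47 CPM after cisplatin, both cisplatin values being lower. Setting Lyz2 aside and singling out Lyz2, Cd68, Csf1r and Ptprc was decided after their values were seen. The ratio of the C1q sum to the sum of all 14 was 0.153 and 0.150 in the vehicle libraries and 0.175 and 0.156 in the cisplatin libraries, 1.09-fold higher in the mean after cisplatin. Without Lyz2 the ratio was 0.269 and 0.254 with vehicle and 0.364 and 0.291 after cisplatin, 1.25-fold higher in the mean. The part of macrophage abundance in the C1q values was not tested.

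**Figure D2:**
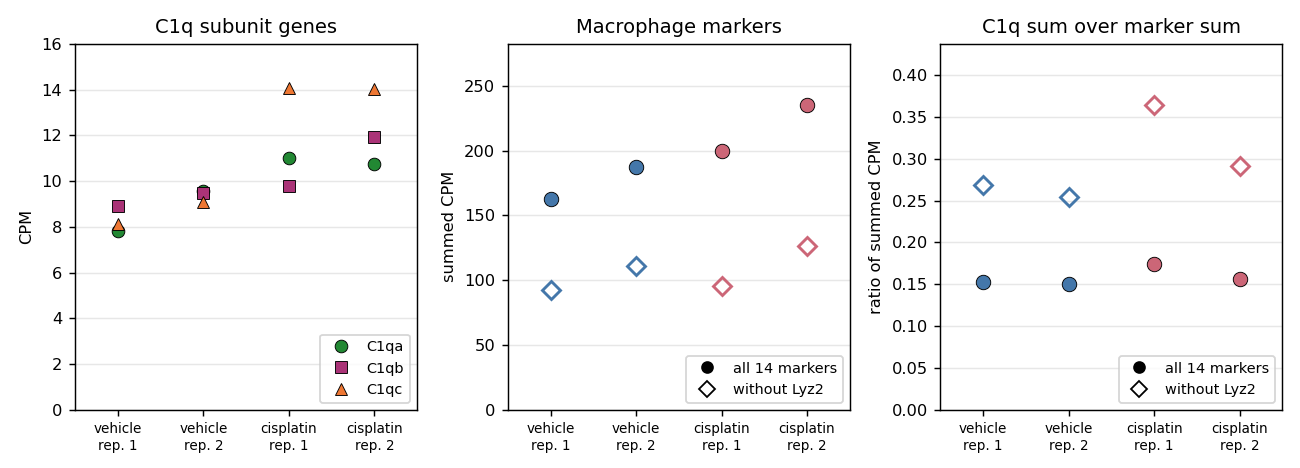
CPM of C1qa, C1qb and C1qc (left), summed CPM of the macrophage markers (middle) and the ratio of the C1q sum to the marker sum (right) in each library; blue is vehicle, red is cisplatin, filled circles are all 14 markers, open diamonds leave out Lyz2, and all axes start at 0. C1qc stands at 14.09 and 14.03 CPM in the cisplatin libraries against 8.11 and 9.09 CPM in the vehicle libraries, and the marker sums of the groups overlap once Lyz2 is left out.

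C1s, the protease that C1q and C1r activate, had 28.9 and 42.9 CPM in vehicle replicates 1 and 2 and 24.4 and 42.0 CPM in cisplatin replicates 1 and 2. The groups overlapped, and replicate 2 was the higher library in both. The log2 fold change was -0.11 (SE 0.338, 95% interval -0.95 to 0.73, edgeR adjusted p = 0.922), and its sign turned to 0.20 without vehicle replicate 2 and to 0.24 without cisplatin replicate 1. C1r, the partner protease, lies next to C1s on chromosome 4 with 6762 bases between them. It followed the same libraries, with 50.9 and 92.0 CPM in vehicle replicates 1 and 2 and 42.0 and 84.5 CPM in cisplatin replicates 1 and 2. The C1r to C1s FPKM ratio accordingly stayed between 1.88 and 2.34 in the 4 libraries.

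C2, the classical pathway protease that is cleaved by C1s, was measured at the limit of these libraries. The row described in the table as complement C2 held 29 and 28 counts with vehicle and 21 and 21 counts after cisplatin, or 1.16 and 1.42 CPM against 0.827 and 0.893 CPM. Both cisplatin libraries were lower, and the log2 fold change was -0.58 (SE 0.430, 95% interval -1.65 to 0.49, edgeR adjusted p = 0.669). A second row also named C2, though described as complement factor B, held 9 and 16 counts with vehicle and 1 and 4 counts after cisplatin. These rows share 608 bases on the same strand of chromosome 20, and a row named Cfb, which spans most of both, held 0 counts in every library. How reads were divided among the 3 rows is therefore uncertain. The summed count of both C2 rows was 38 and 44 with vehicle and 22 and 25 after cisplatin.

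C3, the protein on which the 3 activation pathways converge, had 1.92 and 1.83 CPM in vehicle replicates 1 and 2 and 1.496 and 2.76 CPM in cisplatin replicates 1 and 2. The cisplatin libraries were the lowest and the highest of the 4. The log2 fold change was 0.18 (SE 0.434, edgeR adjusted p = 0.905) and turned to -0.32 without cisplatin replicate 2. Cfd encodes factor D, or adipsin, a protease known from fat cells and macrophages, and it had 2.92 and 3.96 CPM in vehicle replicates 1 and 2 and 2.05 and 4.25 CPM in cisplatin replicates 1 and 2. Again cisplatin replicates 1 and 2 were the lowest and the highest, and the log2 fold change was -0.13 (SE 0.451, edgeR adjusted p = 0.936), turning to 0.11 without vehicle replicate 2 and to 0.32 without cisplatin replicate 1. Cfd lies wholly within the gene Hmha1 on the same strand of chromosome 7, sharing 1835 bases with it, so part of its count may belong to that gene. The 10 adipocyte markers summed to 38.1 and 32.5 CPM with vehicle and 40.3 and 27.2 CPM after cisplatin, and in vehicle replicate 1 Fabp4 (a fatty acid carrier of fat cells) stood at 7.31 CPM against at most 0.748 CPM in the other libraries. Most of the sum was Lipe, a lipase gene, with 23.01 and 27.1 CPM with vehicle and 33.5 and 23.5 CPM after cisplatin, and the part of fat tissue in the Cfd values was not tested. Fabp4 and Lipe were singled out after their values were seen.

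Serping1, the C1 inhibitor gene, had 53.3 and 92.3 CPM in vehicle replicates 1 and 2 and 69.7 and 101 CPM in cisplatin replicates 1 and 2. The groups overlapped, and replicate 2 was again the higher library in both. The log2 fold change was 0.23 (SE 0.329, 95% interval -0.59 to 1.05, edgeR adjusted p = 0.832), and it turned to -0.10 without vehicle replicate 1 and to -0.06 without cisplatin replicate 2. Set against its target protease within each library, Serping1 exceeded C1s in FPKM 2.95-fold and 3.44-fold in the vehicle libraries and 4.57-fold and 3.84-fold in the cisplatin libraries. This ratio did not overlap between the groups and was not tested. Within each group, the library in which C1s, C1r, Cfd and Serping1 were higher also held more transcripts of several other cell types. The 9 fibroblast and meningeal markers (collagens, Dcn, Lum and others) summed to 9532 and 13262 CPM in vehicle replicates 1 and 2 and to 5098 and 10087 CPM in cisplatin replicates 1 and 2, with 4 members higher, 5 lower and none at 0 in the comparison of the groups. The sum was thus 1.39-fold higher in vehicle replicate 2 than in vehicle replicate 1 and 1.98-fold higher in cisplatin replicate 2 than in cisplatin replicate 1. The same ratios were 2.39 and 2.97 for 5 Schwann cell markers, 1.21 and 1.87 for 6 satellite glial markers and 1.19 and 1.40 for the endothelial markers. The Schwann cell sums were 27428 and 65673 CPM in vehicle replicates 1 and 2 and 17788 and 52905 CPM in cisplatin replicates 1 and 2, with 5 of 5 markers lower in the comparison of the groups, none called and none at 0. Across groups, C1s and C1r kept the library order of the fibroblast sum, which the Schwann cell, satellite glial and endothelial sums shared. That order was vehicle replicate 2, cisplatin replicate 2, vehicle replicate 1 and cisplatin replicate 1, from high to low. Cfd and Serping1 were instead highest in cisplatin replicate 2. Serping1 was also higher in cisplatin replicate 1 than in vehicle replicate 1, where the fibroblast sum was the higher. The part of tissue composition in these 4 genes was not tested.

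**Figure D3:**
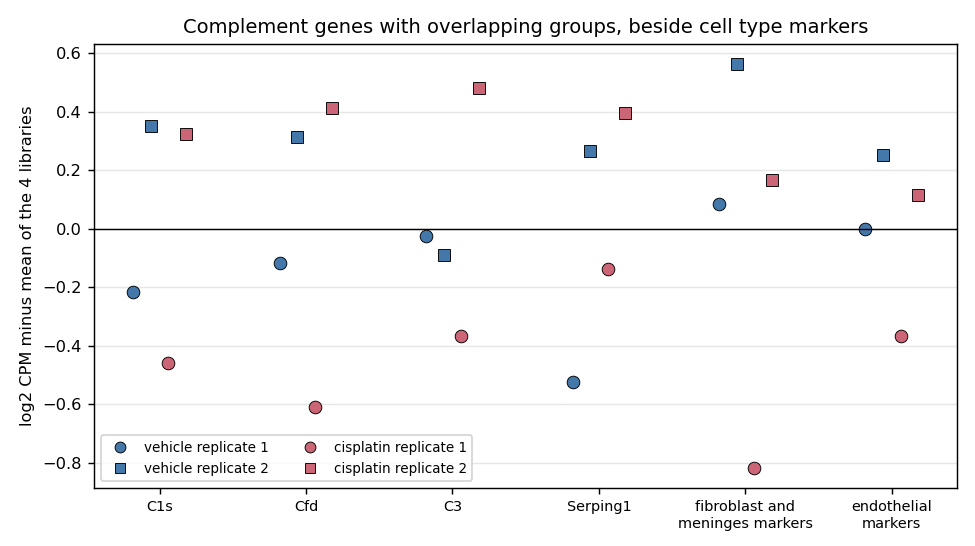
Level of C1s, Cfd, C3 and Serping1 and of 2 summed cell type marker lists in each library, as log2 CPM minus the mean of the 4 libraries (genes with a prior count of 2, lists without). The replicate 2 libraries (squares) lie above the replicate 1 libraries (circles) of the same treatment for C1s, Cfd, Serping1 and both marker lists; for C3 this holds in the cisplatin group only.

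Cd59, whose product protects host cells from the membrane attack complex, had 308 and 389 CPM in vehicle replicates 1 and 2 and 672 and 509 CPM in cisplatin replicates 1 and 2. Both cisplatin libraries stood above both vehicle libraries, and the closest pair across groups differed 1.31-fold. The fitted difference was 1.70-fold, a log2 fold change of 0.76 (SE 0.269, 95% interval 0.09 to 1.43) and an edgeR adjusted p = 0.509. With the gene length correction the log2 fold change was 0.64 (edgeR unadjusted p = 0.0534). The row held 7653 to 17073 counts per library. Leaving out each library in turn gave log2 fold changes between 0.56 and 0.95. The 8 sensory neuron markers summed to 30801 and 23581 CPM with vehicle and 37365 and 26824 CPM after cisplatin, all 8 being higher in the fit and none called, and their part in the Cd59 values was not tested. Their sums overlapped between the groups, with a 1.18-fold ratio of means. From replicate 1 to replicate 2, Cd59 rose in the vehicle group and fell in the cisplatin group, whereas the neuron sum fell in both.

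**Figure D4:**
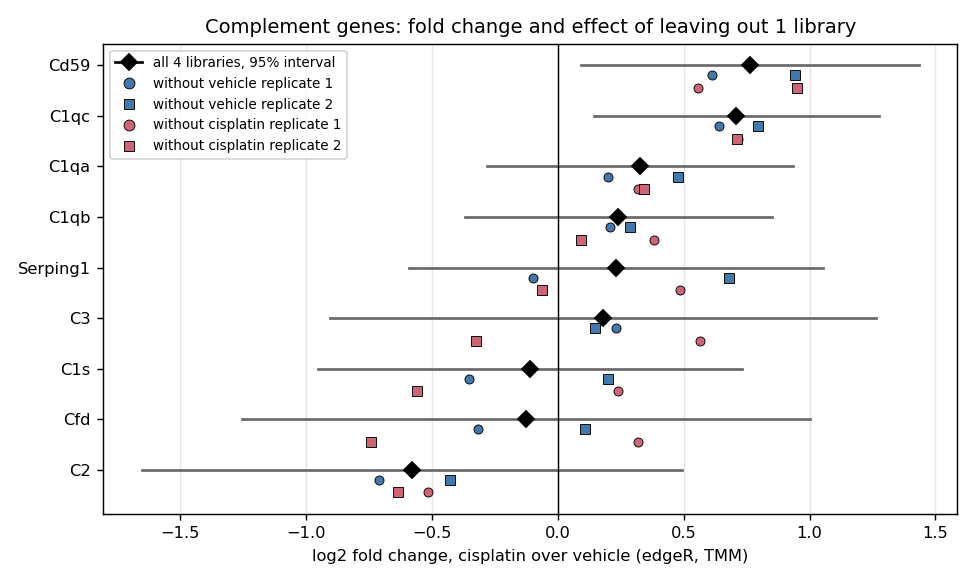
Log2 fold change (cisplatin over vehicle, edgeR) of the 9 rows tested, with 95% intervals (diamonds and lines) and the values after leaving out 1 library (circles and squares below each line). Only the intervals of Cd59 and C1qc lie above 0, before any adjustment, and the values of C1s, C3, Cfd and Serping1 change sign when 1 library is left out.

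The rest of the complement system was read from a list of 46 symbols in 7 roles, which matched 44 rows, of which 32 were tested. None was called by edgeR in either direction, DESeq2 and limma on FPKM also gave 0, and 3 (C4a, C4b and C1qbp) had an unadjusted p under 0.05 in edgeR, where 9.57% of all genes tested did. After cisplatin 19 were higher and 13 lower, with a median log2 fold change of 0.07. The groups did not overlap in 4 of the 32 that were higher and 3 that were lower, beside 20.6% and 21.2% of all genes tested. Of the upstream components, all 3 classical pathway genes tested were lower, though the C4a and C4b rows among them overlap on the chromosome. The 6 lectin pathway genes tested were 5 higher and 1 lower. The single alternative pathway gene tested, the properdin gene Cfp (4.89 FPKM), had a log2 fold change of -0.01.

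C1r was the highest of the classical pathway genes, with a mean of 23.7 FPKM and a log2 fold change of -0.18 (SE 0.425, edgeR adjusted p = 0.905). C4a, 1 of the 2 genes for the C2 partner C4, had 118 and 96 counts with vehicle and 39 and 68 counts after cisplatin. Both cisplatin libraries were lower, with a log2 fold change of -1.12 (SE 0.400, edgeR adjusted p = 0.509). C4b had 34 and 38 counts with vehicle and 10 and 20 counts after cisplatin, again with both lower and a log2 fold change of -1.40 (SE 0.544, edgeR adjusted p = 0.516). The C4b row lies almost wholly within the C4a row on the same strand, sharing 14369 bases of chromosome 20. The division of reads between them is therefore uncertain, and the rows are not separate loci in this build. With another C4a row elsewhere on that chromosome added, the summed count was 157 and 139 with vehicle and 58 and 94 after cisplatin. The C4a row that overlaps C4b also covers other genes, among them Egfl8, Rnf5 and Ppt2 on the same strand. Egfl8 held 7623 to 12373 counts per library, and part of the C4a count may belong to such genes. The highest lectin pathway genes were the collectin gene Colec12 (6.07 FPKM, log2 fold change -0.20) and the protease gene Masp1 (5.57 FPKM, 0.40). The mannose-binding lectin genes Mbl1 and Mbl2 held 0 counts in every library, under a floor of 3 counts that corresponds to between 0.118 and 0.152 CPM.

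Of the terminal pathway, which forms the membrane attack complex that Cd59 blocks, 3 of the listed genes were tested. C8g had 4.06 FPKM and a log2 fold change of 0.40 (SE 0.420), and C7 had 2.82 FPKM and -0.67 (SE 0.427, edgeR adjusted p = 0.620), with overlapping groups in both. C8a, C8b and C9 held at most 4 counts in any library and were not tested. All 5 soluble regulators tested were higher in the fit, and none was called. Clusterin (Clu), a chaperone that also inhibits the terminal complex, was the highest at 254 FPKM, with 476 and 350 CPM in vehicle replicates 1 and 2, 650 and 472 CPM in cisplatin replicates 1 and 2 and a log2 fold change of 0.44 (SE 0.291, edgeR adjusted p = 0.631). Its groups overlapped, whereas vitronectin (Vtn, 18.5 FPKM) was higher in both cisplatin libraries, with 26.4 and 27.2 CPM against 33.8 and 40.6 CPM (log2 fold change 0.47, SE 0.195, edgeR adjusted p = 0.519).

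Of the 7 other membrane regulators tested, 4 were higher and 3 lower, and the groups overlapped in all 7. Susd4, an inhibitor of complement activation, was the highest of them at 52.6 FPKM (log2 fold change 0.48, SE 0.326). Cd55, which accelerates the decay of the enzymes that cleave C3, followed at 39.9 FPKM (0.40, SE 0.328). Among the receptors and binding proteins, C1qbp, a mostly mitochondrial protein known to bind C1q, was the highest at 75.1 FPKM. It had 69.4 and 70.6 CPM in the vehicle libraries and 103 and 90.5 CPM in the cisplatin libraries, which did not overlap (log2 fold change 0.47, SE 0.177, edgeR adjusted p = 0.516). C5ar1, the receptor for the inflammatory fragment C5a, came next at 1.71 FPKM with a log2 fold change of -0.05 (SE 0.409).

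**Figure D5:**
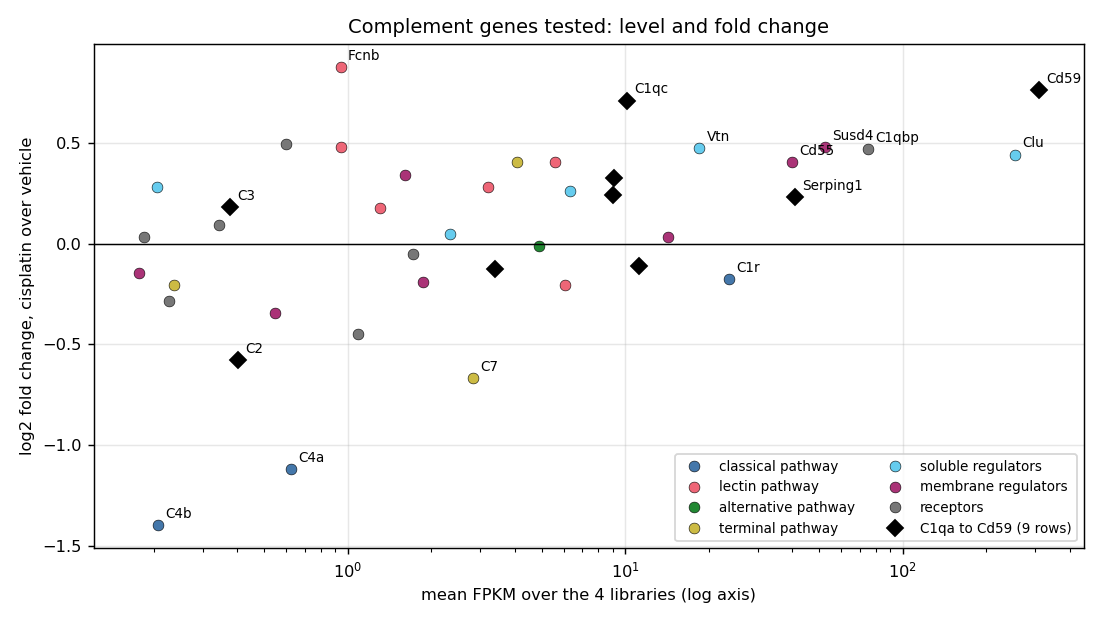
Mean FPKM over the 4 libraries (log axis) against log2 fold change (cisplatin over vehicle, edgeR) for the 32 other complement genes tested, coloured by role, and the 9 rows from C1qa to Cd59 (black diamonds). C4b and C4a lie lowest at -1.40 and -1.12, and Cd59 lies at the far right at 309 FPKM and 0.76.

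The patterns of the 9 genes over the 4 libraries were compared by the root-mean-square distance between their log2 CPM values, each centred on its own mean. Within the C1q cluster the distances were 0.140 between C1qa and C1qb, 0.193 between C1qa and C1qc and 0.259 between C1qb and C1qc. Of 11059 other genes with a mean of at least 5 CPM, 1402 were nearer to C1qa than C1qb was, so over 4 libraries such closeness is common. The closest pair of the 9 genes was C1s and Cfd (0.102), and C1qc was 0.154 from Cd59. Among the 3 genes nearest to each were Med16, Ncoa5 and Fam19a5 for C1qa, Coa7, Kctd13 and Ythdf2 for C1qb, and Tmem88, Cstb and Cox6b1 for C1qc. For the proteases they were Hsd17b10, Rap1a and Rnf130 for C1s, Cand2, Prpf18 and Bcorl1 for C2, and Arl6ip6 and Ctbp2 for Cfd. For C3 they were Hlx, Srgn and Sppl2a, for Serping1 Fzd2, Psmf1 and Adgre5, and for Cd59 Acot13, Gstm1 and Txnl4a. These distances lay between 0.00730 and 0.0583, with 4 points behind each.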

How the data were processed

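RNA from whole lumbar DRG was sequenced for 2 vehicle and 2 cisplatin libraries, and groups and replicate numbers came from the sample titles. The authors mapped paired reads with HISAT2 2.0.5 to Ensembl Rnor_6.0 and deposited whole-number counts per gene, and their processing notes name StringTie 1.3.3b and featureCounts 1.5.0-p3. Whether counting used strand is not given in the sources used here. The authors also deposited FPKM values per gene and library. The labels describe the libraries as separate rats.

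Protein-coding genes passing edgeR's filterByExpr (14719 of 22293) were compared with edgeR 4.0.16 (TMM, glmQLFit and glmQLFTest, R 4.3.3), with Benjamini-Hochberg adjustment over all of them. Standard errors are the log2 fold change over the square root of F. CPM values are scaled to the summed counts of tested genes after TMM. Even the most similar libraries differed far beyond sampling noise (chi-square over degrees of freedom 47.6). The floor of 3 counts reflects counting error alone, since PCR copies could not be told from separate molecules. The alternatives were DESeq2 1.42.0, limma 3.58.1 on log2(FPKM + 1) and log2(FPKM + 0.1), where changes of low genes are understated, other scalings, filters, biotypes and thresholds, a lowess gene length offset (span 0.3), a replicate block and leaving out each library. The edgeR, DESeq2 and limma steps were tested on simulated data. Genes named are the 9, in each role the pair of other complement genes with the highest mean FPKM, any called, and the 3 nearest genes of each; others, including C4a, C4b and single markers, were singled out after their values were seen. The genes and lists were chosen with earlier results of these data known. A few results are not reported here.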

Additional observations from a re-analysis of the deposited data

How the results depend on the processing

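Across all genes, 1 was called (lower after cisplatin). This became 2 without the filter on low counts and 2 when every library had to hold at least 10 counts. It became 4 with limma on log2(FPKM + 1), 2 with limma on log2(FPKM + 0.1) and 124 with DESeq2. An unadjusted p under 0.05 with at least a 1.5-fold difference gave 1195, and the unadjusted counts below use the same rule. Leaving out each library gave 5 to 7, where the lone library of a group was assumed to vary like the others. A replicate block in edgeR gave 1665 genes called (11.3% of those tested), and 1082 with the gene length correction added. Of the 9 complement genes, unadjusted p and the replicate block each called 2 (Cd59 and C1qc) and the block with length correction 1 (Cd59); all other alternatives called 0. Under the block C1qc had a log2 fold change of 0.71 (edgeR adjusted p = 0.0260; 0.0260 to 0.996 over its alternatives) and Cd59 0.76 (edgeR adjusted p = 0.00874; 0.00874 to 0.996), or 0.64 for Cd59 with length correction. Of the other complement genes, unadjusted p called 2 (C4a and C4b) and the block 1 (C4a). The titles number the rats 1 and 2 in each group, but no source says that a number marks a shared litter or day. Across genes, the differences between replicates 2 and 1 in the groups correlated (Pearson's r = 0.444), and with 2 pairs this cannot show that the numbers pair the libraries. Reversals came only from leaving out 1 library, over which the log2 fold change ran from -0.56 to 0.24 for C1s (0.20 without vehicle replicate 2, 0.24 without cisplatin replicate 1), -0.32 to 0.56 for C3 (-0.32 without cisplatin replicate 2), -0.74 to 0.32 for Cfd (0.11 without vehicle replicate 2, 0.32 without cisplatin replicate 1) and -0.10 to 0.68 for Serping1 (-0.10 without vehicle replicate 1, -0.06 without cisplatin replicate 2). The cause of these changes was not tested. C1qa, C1qb, C1qc, Cd59 and C2 kept their direction under all 15 alternatives, over which C1qa ran from 0.13 to 0.48 and C1qb from 0.04 to 0.38, lowest with the gene length correction (C1qa) and with it and the block (C1qb). Leaving Lyz2 out of the macrophage markers, chosen after seeing the data, moved the ratio of their sums from 1.24 to 1.09 and that of C1q to them from 1.09 to 1.25. Depth limits C2 and C3, with 21 to 65 counts per library.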

Other observations

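Some complement rows are not among the tested rows described above. The gene for C5 is named Hc in the count table, so the listed symbol C5 matched no row. Hc was looked up after the values were seen, and no fit is given for it here. It held 15 and 7 counts in vehicle replicates 1 and 2 and 26 and 22 counts in cisplatin replicates 1 and 2. Cd93, a receptor once thought to bind C1q, is annotated as a processed transcript and held 494 and 361 counts with vehicle and 213 and 294 counts after cisplatin. A second C4a row elsewhere on chromosome 20 held 5 and 5 counts with vehicle and 9 and 6 counts after cisplatin.

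Further marker lists are given as summed CPM. The 5 hepatocyte markers, for the main organ of plasma complement synthesis, summed to 4.99 and 4.37 CPM with vehicle and 10.2 and 6.76 CPM after cisplatin, nearly all of it Serpina1, with Ahsg at 0 in every library. The 6 neutrophil markers summed to 35.0 and 22.7 CPM with vehicle and 35.0 and 57.1 CPM after cisplatin, with 5 of 5 tested higher, none called and Ltf at 0. The 7 lymphocyte markers summed to 8.31 and 6.91 CPM with vehicle and 8.86 and 9.18 CPM after cisplatin, with 3 higher and 2 lower of 5 tested. The 6 satellite glial markers summed to 1659 and 2008 CPM with vehicle and 940.2 and 1756 CPM after cisplatin, with 1 higher and 5 lower. The endothelial markers with a row summed to 99.8 and 119 CPM with vehicle and 77.4 and 108 CPM after cisplatin, with 1 higher and 3 lower of 4 tested and Cldn5 at 0. The erythrocyte markers with a row (Hbb, Alas2 and Slc4a1) summed to 1265 and 1085 CPM with vehicle and 1172 and 1149 CPM after cisplatin, all 3 slightly lower.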
